A study of Mus musculus with 6 samples.

Results

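The 10 genes described here belong to 2 signalling routes of damaged and denervated muscle: the TWEAK receptor Fn14 with its ligand, and the gp130 cytokine receptors with Stat3 and its feedback inhibitors. They were chosen by symbol, from the gene names in the deposited tables, out of 21572 symbols. They are Tnfrsf12a (Fn14), Tnfsf12 (TWEAK), Il6ra, Il6st (gp130), Osmr, Lifr, Stat3, Socs3, Socs2 and Cish. Of these, 9 have an entry of their own, and Tnfsf12 is found only in an entry joined with its neighbours Tnfsf13 and BC096441. The libraries are polyadenylated RNA of whole soleus, a slow hindlimb muscle, of adult C57BL/6 mice. There are 3 groups of 2 libraries: innervated wild-type (WT) soleus, WT soleus at 3 days of denervation, and soleus at 3 days of denervation from mice labelled Dach2-/-/Hdac9-/-, called DKO-labelled here. The DKO-labelled group therefore differs from denervated WT by genotype and from innervated WT by genotype and nerve supply. Innervated knockout muscle was not analysed here.

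Fn14 is a small member of the tumour necrosis factor (TNF) receptor family that binds TWEAK and signals to NF-kB, including its p100/RelB branch. It is low in resting muscle and is known to rise after denervation and injury. The gp130 family of receptors works through a shared chain, gp130, which pairs with a ligand-specific chain: the IL-6 receptor, the oncostatin M receptor (OSMR) or the LIF receptor (LIFR). The assembled receptor activates JAK kinases, which phosphorylate STAT3. STAT3 then induces SOCS3, which binds gp130 and shuts the signal down. SOCS2 and CISH are the related inhibitors best known as STAT5 targets downstream of growth hormone and other cytokines. All values here are transcript levels, so neither STAT phosphorylation nor receptor protein was measured.

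Levels are the authors' FPKM, which scales a gene's fragments by transcript length and by 1 factor per library. Differences between groups are on the log2 scale with their SE. They were fitted to the deposited fragments with edgeR (quasi-likelihood), p-values were adjusted by Benjamini-Hochberg across 12247 tested genes, and a gene is called changed at an adjusted p under 0.05. All 10 genes passed the filter on low values, a mean of at least 0.5 FPKM. The labels do not say that the 2 libraries of a group came from separate animals, so the spread behind the p-values may be technical. Totals ran from 25529434 to 46305449 assigned fragments. The sample numbers form 2 runs, 14043 to 14045 and 14049 to 14051, each with 1 library per group. Replicate 1 is the library of run 1 and replicate 2 that of run 2, and within-run differences are given beside the results. On the second principal component (13% of the variance) denervated WT replicate 2 lay at 44.2 and the other 5 libraries between -28.6 and 8.8. Dach2 was at 3.85 and 4.29 FPKM in innervated muscle, 0.519 and 0.536 after denervation of WT, then 0.961 and 0.681 in the DKO-labelled group. Hdac9 was at 4.10 and 3.14, 1.83 and 0.285, and 0.534 and 0.181 FPKM in the same order. A whole-gene value also counts exons outside a deleted part, so these levels do not check the deletion.

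The promoters of Socs3 and Cish are shown because, of the 10 genes, these were the ones whose deposited RefSeq promoter window held the STAT motif TTCNNNGAA. Windows run from 250 bases before to 50 after the start on GRCm38.p6, and 8 of the 10 genes had an entry, with 9 windows in all because Lifr has 2. The capitals mark the motif. The Socs3 sequence covers the 250 bases before the start (chr11:117969367-117969616, minus strand), and its match begins 154 bases before the start. The Cish sequence is a 30-base stretch from 5 bases before the start (chr9:107296654-107296683, plus strand), and its 2 matches begin at the start and 11 bases after it.
Socs3: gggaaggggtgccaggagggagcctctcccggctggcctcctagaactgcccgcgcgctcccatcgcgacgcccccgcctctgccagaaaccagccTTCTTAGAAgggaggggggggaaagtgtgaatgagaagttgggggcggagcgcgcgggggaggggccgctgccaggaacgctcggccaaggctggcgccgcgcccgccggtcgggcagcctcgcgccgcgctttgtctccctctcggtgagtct
Cish: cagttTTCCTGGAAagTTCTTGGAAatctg
The motif reads the same on both strands. It occurs in 8.30% of 32851 RefSeq windows of this length, so it is not rare. The AP-1 motif TGANTCA, found in 7.81% of windows, occurred 1 time among the 9, in that of Osmr. The NF-kB motif (GGG, any 2 bases, TTTCC), searched on both strands and found in 1.63% of windows, occurred in 0 of the 9. These are matches of letters and were not tied to any measured binding.

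Denervation of WT soleus was accompanied by a rise of Fn14 and falls of LIFR and of the joined TWEAK entry. Of the 10 genes, 3 were called, 1 higher and 2 lower, where 28.7% of all tested genes were called in this comparison, 14.4% higher and 14.3% lower. The share among the 10 is thus close to that of all genes. In 9 of the 10 the 2 groups did not overlap in FPKM, a property that 71.1% of tested genes share. Their median log2 change was -0.01, beside 0.002 over all tested genes. At an unadjusted p under 0.05, 6 of the 10 passed, beside 5374 of the 12247 tested genes.

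**Figure D1:**
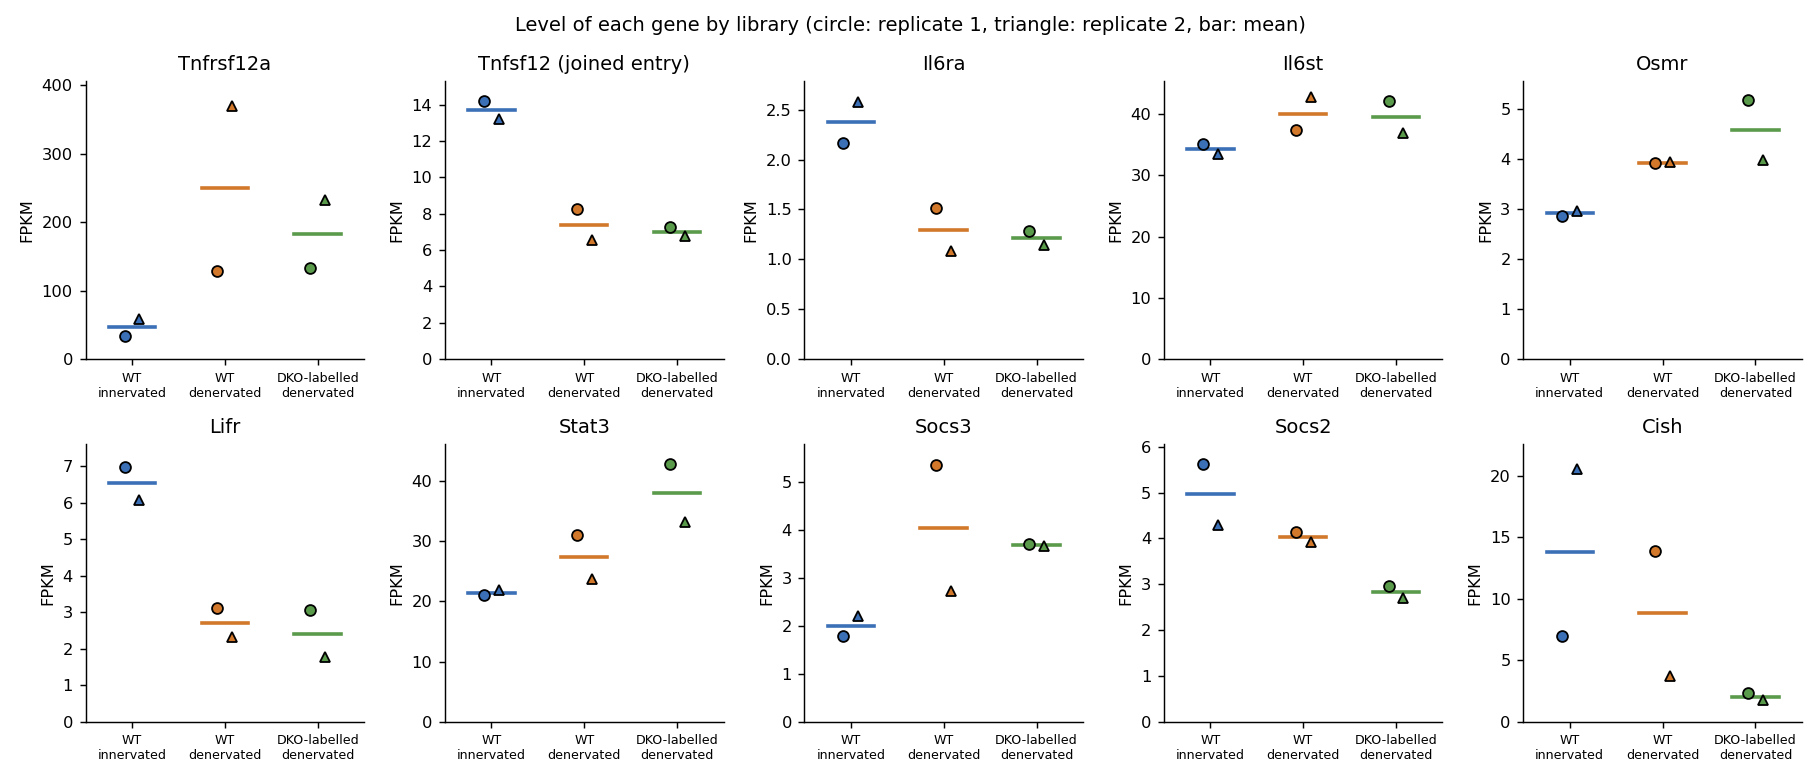
FPKM (vertical axis, linear from 0) of each of the 10 genes in the 6 libraries, in a panel per gene, with replicate 1 as a circle, replicate 2 as a triangle and the mean of the group as a bar. Tnfrsf12a reaches 129 to 370 FPKM in the denervated libraries against 34.3 and 58.4 in innervated WT, Lifr lies lower in all 4 denervated libraries, and Cish is at 2.30 and 1.78 FPKM in DKO-labelled muscle and spread from 3.72 to 20.6 in WT muscle.

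Tnfrsf12a encodes Fn14 itself. It was at 34.3 and 58.4 FPKM in innervated muscle, 129 and 370 after denervation of WT, then 133 and 232 in the DKO-labelled group. All 4 denervated libraries lay above both innervated ones, while the denervated groups overlapped each other. In every group the library of run 2 was the higher, by 1.70-fold, 2.85-fold and 1.75-fold. Denervated WT was 5.72-fold above innervated WT (log2 2.52 ± 0.56, edgeR adjusted p = 0.0215, 95% interval 1.16 to 3.87). Within the runs the difference was 1.98 and 2.76, so the direction was the same in both. The size of the rise rested in part on denervated WT replicate 2, the library that stood apart on the second principal component: without it Fn14 was 2.95-fold higher (log2 1.56, adjusted p = 0.0389). The call was lost without innervated WT replicate 1 or 2 (log2 2.19 and 2.94, adjusted p = 0.139 and 0.0978).

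The mm9 locus that the tables list for Tnfrsf12a (chr17:23797489-23814416) is also listed for Ccdc64b, Hcfc1r1 and Thoc6, and how fragments were shared among these entries is not stated. The Fn14 value is uncertain to that extent. The 2 expressed entries of that locus did not follow Fn14. Hcfc1r1, at 84.4 and 109 FPKM in innervated and 47.8 and 42.4 in denervated WT, fell by 1.0 ± 0.25 on the log2 scale (edgeR adjusted p = 0.0279). Thoc6 lay between 7.44 and 8.59 FPKM in these 4 libraries, with a difference of 0.26 ± 0.21 (adjusted p = 0.370). Ccdc64b had at most 1 fragment in any library.

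Tnfsf12 encodes TWEAK, the Fn14 ligand. Its joined entry (chr11:69496078-69509600, mm9) also holds Tnfsf13, the ligand APRIL, and BC096441, so the share of TWEAK in it is unknown. The entry was at 14.2 and 13.2 FPKM in innervated muscle, 8.26 and 6.53 after denervation of WT, then 7.29 and 6.75 in the DKO-labelled group. Both innervated libraries were the higher, and the denervated groups overlapped. It fell 1.78-fold in denervated WT (log2 -0.83 ± 0.19, edgeR adjusted p = 0.0232), with -0.71 and -0.97 within the runs. The call was lost without innervated WT replicate 1 or 2 (adjusted p = 0.141 and 0.125) and with scaling to library totals alone (-0.57, adjusted p = 0.0695). The ratio of Fn14 to the joined entry, both in FPKM, was 2.42 and 4.43 in innervated muscle, 15.7 and 56.6 after denervation of WT, then 18.2 and 34.5 in the DKO-labelled group. The receptor was thus the more abundant transcript in every library, and the ratio was higher in all 4 denervated ones.

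Among the gp130 receptors the shared chain moved least. Il6st (chr13:113254277-113297068), which encodes gp130, was at 35.1 and 33.5 FPKM in innervated muscle, 37.4 and 42.8 after denervation of WT, then 42.1 and 36.9 in the DKO-labelled group. The 6 libraries ran from 33.5 to 42.8 FPKM, with both denervated groups just above the innervated one. The difference of 0.28 ± 0.16 in denervated against innervated WT did not pass (edgeR adjusted p = 0.218, 95% interval -0.10 to 0.65). It passed with scaling to library totals alone (0.54, adjusted p = 0.0357), a scaling that moves the median of all genes to 0.268.

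Il6ra (chr3:89673245-89717084) encodes the IL-6 binding chain and was the least abundant of the 4 gp130-family receptors among the 10 genes, at 2.17 and 2.58 FPKM in innervated muscle, 1.51 and 1.08 after denervation of WT, then 1.28 and 1.14 in the DKO-labelled group. Every denervated library lay below both innervated ones. The difference in denervated WT was -0.81 ± 0.25 and narrowly missed the threshold (edgeR adjusted p = 0.0563). Within the runs it was -0.47 and -1.17. It passed in 6 of 16 alternatives, among them DESeq2 (adjusted p = 0.0238), all 3 limma fits (adjusted p = 0.0414 to 0.0498) and a fit that blocks the runs (adjusted p = 0.0473). Relative to gp130, Il6ra was at 0.0619 and 0.0770 with the nerve intact, 0.0403 and 0.0253 after denervation of WT, then 0.0303 and 0.0309 in the DKO-labelled group.

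Osmr and Lifr are neighbouring genes whose products pair with gp130 for oncostatin M and for LIF. On mm9 they lie 255 kb apart on chromosome 15 (chr15:6763576-6824313 and chr15:7079571-7147489). They differed in direction. Lifr was at 6.99 and 6.07 FPKM in innervated muscle, 3.12 and 2.31 after denervation of WT, then 3.06 and 1.77 in the DKO-labelled group, so all denervated libraries were below both innervated ones. It fell 2.39-fold in denervated WT (log2 -1.26 ± 0.31, edgeR adjusted p = 0.0275), with -1.15 and -1.39 within the runs. That call was lost without innervated WT replicate 1 or 2 (adjusted p = 0.148 and 0.114), without denervated WT replicate 2 (0.0790) and with library totals alone (0.0516).

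Osmr was at 2.87 and 2.96 FPKM in innervated muscle, 3.92 and 3.94 after denervation of WT, then 5.18 and 3.98 in the DKO-labelled group. Replicates agreed closely in both WT groups, and every denervated library lay above both innervated ones. The difference of 0.47 ± 0.18 in denervated WT was 0.47 within each run but did not pass (edgeR adjusted p = 0.0958, 95% interval 0.03 to 0.91). It passed with library totals alone (0.74, adjusted p = 0.0242). As a description chosen after the values were seen, the ratio of Osmr to Lifr was 0.411 and 0.487 in innervated muscle, 1.26 and 1.71 after denervation of WT, then 1.69 and 2.25 in the DKO-labelled group. The more abundant of the 2 transcripts was therefore Lifr in both innervated libraries and Osmr in all 4 denervated ones. Relative to gp130, Lifr was at 0.199 and 0.181, then 0.0833 and 0.0540, then 0.0727 and 0.0479 in the same order of groups. Osmr was at 0.0818 and 0.0883, 0.105 and 0.0921, and 0.123 and 0.108 of gp130. In every library gp130 was more abundant than Il6ra, Osmr and Lifr by a wide margin.

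**Figure D2:**
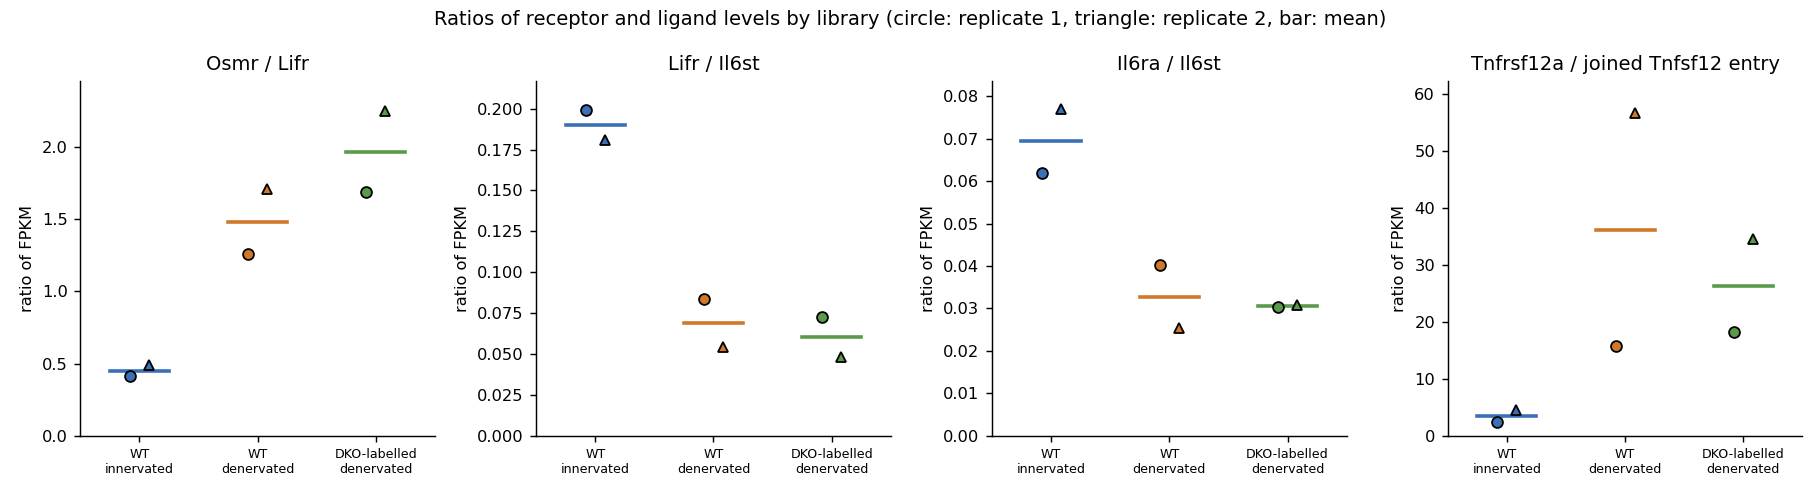
Ratios of FPKM within each of the 6 libraries (vertical axis, linear from 0), with replicate 1 as a circle, replicate 2 as a triangle and the group mean as a bar. Osmr over Lifr lies at 0.411 and 0.487 in innervated WT and between 1.26 and 2.25 in the 4 denervated libraries, and Lifr over Il6st lies at 0.199 and 0.181 in innervated WT and between 0.0479 and 0.0833 in the others.

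Stat3 (chr11:100748123-100800825) encodes the transcription factor downstream of gp130. It was at 21.0 and 21.9 FPKM in innervated muscle, 31.0 and 23.7 after denervation of WT, then 42.9 and 33.2 in the DKO-labelled group. The 3 groups did not overlap and lay in that order from low to high. Denervated WT differed from innervated WT by 0.43 ± 0.19, which did not pass (edgeR adjusted p = 0.142, 95% interval -0.04 to 0.89), and the runs gave 0.63 and 0.20. With library totals alone it passed (0.70, adjusted p = 0.0370).

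The feedback inhibitors did not move together. Socs3 (chr11:117827400-117830680) was at 1.8 and 2.20 FPKM in innervated muscle, 5.35 and 2.72 after denervation of WT, then 3.72 and 3.66 in the DKO-labelled group. All denervated libraries lay above the innervated ones, with denervated WT replicate 1 the highest. The 2.15-fold difference in denervated WT (log2 1.11 ± 0.34) missed the threshold by little (edgeR adjusted p = 0.0504). Within the runs it was 1.64 and 0.41. It passed in 6 of 17 alternatives, over which the adjusted p ran from 0.00843, without denervated WT replicate 2, to 0.240. The ratio of Socs3 to Stat3 was 0.0856 and 0.1 in innervated muscle, 0.173 and 0.115 after denervation of WT, then 0.0868 and 0.110 in the DKO-labelled group, and the innervated and DKO-labelled ratios overlapped.

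Socs2 (chr10:94874123-94879491) was at 5.63 and 4.29 FPKM in innervated muscle, 4.15 and 3.93 after denervation of WT, then 2.96 and 2.70 in the DKO-labelled group. The 3 groups did not overlap and descended in that order, although innervated WT replicate 2 and denervated WT replicate 1 were close. The difference of -0.31 ± 0.21 in denervated WT did not pass (edgeR adjusted p = 0.312). Cish (chr9:107199019-107204292) was the most variable of the 10, at 6.95 and 20.6 FPKM in innervated muscle and 13.9 and 3.72 in denervated WT. Its order was opposite in the 2 runs, with differences of 1.09 and -2.35. The fitted difference was -0.54 ± 0.68 (edgeR adjusted p = 0.576), and its 95% interval of -2.18 to 1.1 spans large changes in both directions.

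**Figure D3:**
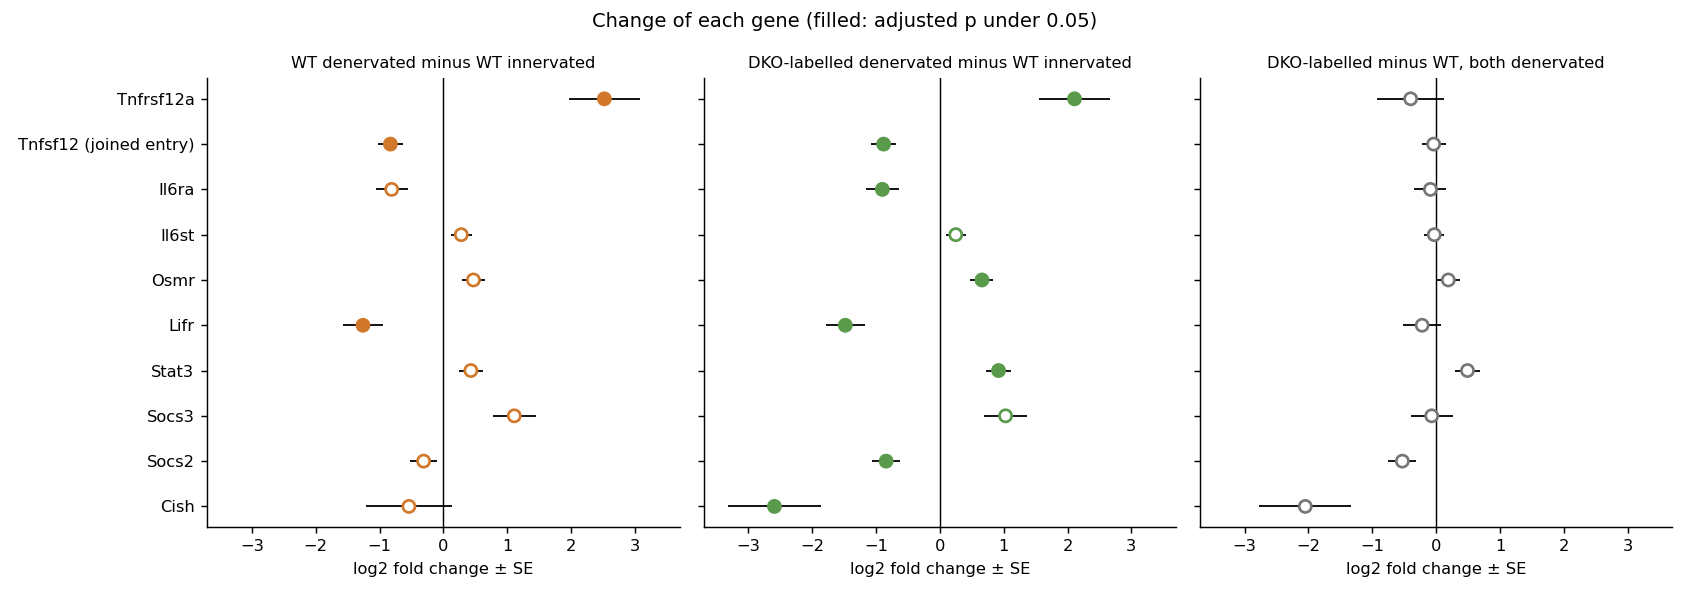
log2 fold change (horizontal axis) of the 10 genes in the 3 comparisons, 1 panel each, with bars of ± 1 SE and points filled where the adjusted p was under 0.05. Filled points are 3 in denervated against innervated WT, 0 in DKO-labelled against WT denervated muscle and 8 in DKO-labelled denervated against innervated WT, and the widest bars are those of Cish and Tnfrsf12a.

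Between the 2 denervated groups none of the 10 genes was called. Over all genes 0.0408% were called (5 of 12247), 0.0245% higher and 0.0163% lower, so few calls were made anywhere in this comparison. Of the 10, 3 passed at an unadjusted p under 0.05 (Stat3, Socs2 and Cish), beside 748 of the 12247 tested genes. DESeq2 and each limma fit also called 0 of the 10. The groups did not overlap for 4, Osmr, Stat3, Socs2 and Cish, where 29.8% of tested genes do not overlap. The median log2 difference of the 10 was -0.08, beside -0.02 over all tested genes. This comparison and the preceding one share the denervated WT libraries.

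Cish had the widest difference here. Its DKO-labelled libraries were at 2.30 and 1.78 FPKM, below both denervated WT libraries at 13.9 and 3.72, and close to each other. The fitted value was 4.15-fold lower (log2 -2.05 ± 0.72, edgeR unadjusted p = 0.0263, adjusted p = 0.723), with -2.53 and -1.0 within the runs. Stat3 lay higher in DKO-labelled muscle by 0.49 ± 0.19 (unadjusted p = 0.0417, adjusted p = 0.793), at 0.48 and 0.50 within the runs. Socs2 differed by -0.53 ± 0.22 (unadjusted p = 0.0460, adjusted p = 0.799), at -0.51 and -0.55 within the runs. For these 3 genes both runs gave the same sign.

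For the remaining genes the interval of the difference shows what the data leave possible. Tnfrsf12a differed by -0.40 ± 0.53 between the denervated groups (edgeR adjusted p = 0.977), with 0.08 and -0.62 within the runs and a 95% interval of -1.68 to 0.87. Lifr differed by -0.22 ± 0.30 (interval -0.96 to 0.51), Osmr by 0.19 ± 0.18 and Socs3 by -0.07 ± 0.33. The tightest was gp130, at -0.03 ± 0.16 (interval -0.40 to 0.35), and the joined TWEAK entry was at -0.04 ± 0.19 (interval -0.50 to 0.42). Il6ra differed by -0.09 ± 0.25 (adjusted p = 0.993).

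Set against innervated WT, the DKO-labelled denervated libraries had 8 of the 10 genes called, 3 higher and 5 lower, where 31.4% of all tested genes were called, 15.2% higher and 16.2% lower. In all 10 the groups did not overlap, which holds for 77.4% of tested genes. The median log2 difference was -0.30, beside 0.009 over all tested genes. This comparison shares its innervated libraries with the first, so its calls are no independent repeat. Fn14 was 4.33-fold higher (log2 2.11 ± 0.56, edgeR adjusted p = 0.0315), with 2.07 and 2.14 within the runs. Stat3 was 1.89-fold higher (0.92 ± 0.20, adjusted p = 0.0166) and Osmr 1.58-fold higher (0.66 ± 0.18, adjusted p = 0.0360).

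The 5 lower genes were Lifr, Cish, Il6ra, the joined TWEAK entry and Socs2. Lifr was 2.79-fold lower (log2 -1.48 ± 0.31, edgeR adjusted p = 0.0157) and Cish 6.03-fold lower (-2.59 ± 0.73, adjusted p = 0.0389), against innervated WT values of Cish that differed 2.97-fold from each other. Il6ra was 1.87-fold lower (adjusted p = 0.0400), the joined entry 1.84-fold lower (adjusted p = 0.0180) and Socs2 1.78-fold lower (adjusted p = 0.0304). Socs3 was at 1.03 ± 0.34 (adjusted p = 0.0581) and gp130 at 0.25 ± 0.16 (adjusted p = 0.256). Each of the 8 calls was lost when either innervated library was left out, and without a DKO-labelled library 1 of the 10 remained called: Lifr without replicate 1 and Stat3 without replicate 2. With library totals alone the calls of Il6ra, the joined TWEAK entry and Socs2 were also lost (adjusted p = 0.124, 0.0692 and 0.12), and that of Il6ra with upper-quartile scaling (0.0549). The difference of Cish was -1.61 without innervated WT replicate 2. The call of Osmr was also lost in limma with a pseudocount of 1 (adjusted p = 0.0505), and that of Cish with pseudocounts of 0.5 and 1 (0.0518 and 0.0562).

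Whether a gene passed in this comparison and not in denervated against innervated WT is no test of a genotype effect. That test is the comparison of the 2 denervated groups, in which none of the 10 passed. Stat3, Socs2, Osmr and Cish are the genes for which the side of the threshold differed while the denervated groups did not overlap. For Stat3, Socs2 and Osmr the denervated WT values lay between the innervated WT and DKO-labelled ones, while those of Cish overlapped the innervated WT values.

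Other genes of the 2 routes were read from 8 lists. The ligands of gp130 receptors differed widely in level. Ctf1, which encodes cardiotrophin-1, lay between 9.08 and 15.7 FPKM, and the entry that joins Cntf with U05342 and Zfp91 between 31.4 and 48.6 FPKM, of which the share of CNTF is unknown. Il6, Osm and Lif were scarce. Of 10 cytokine genes read 3 passed the filter and 0 were called, and the smallest unadjusted p in denervated against innervated WT belonged to Clcf1 (0.39 ± 0.35, edgeR adjusted p = 0.417) and Ctf1 (-0.07 ± 0.32, adjusted p = 0.891). Il6 had 7 and 6 fragments in innervated muscle, 14 and 7 after denervation of WT, then 6 and 3 in the DKO-labelled group. Osm had between 2 and 13 and Lif between 10 and 63 fragments, too few for the level filter, and in the fit with no filter the adjusted p in denervated against innervated WT was 0.998 for Il6, 0.950 for Osm and 0.785 for Lif. The Lif difference in that fit was 0.26 ± 0.56. Il11, which signals through gp130 and the IL-11 receptor, had 8 and 2 fragments in innervated muscle, 92 and 20 after denervation of WT, then 54 and 49 in the DKO-labelled group. It did not reach the level filter. In the fit with no filter it was called higher in denervated WT (2.74 ± 0.69, adjusted p = 0.0150) and in DKO-labelled muscle against innervated WT (2.98 ± 0.69, adjusted p = 0.00905), where 11.9% and 12.3% of 18234 genes were called higher.

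The other receptor chains that pair with gp130 fell in part, as Lifr did. Of 5, 3 were tested and 2 were called lower in both comparisons with innervated WT, where 14.3% and 16.2% of all tested genes were called lower. Il11ra1, the IL-11 receptor, was at 34.9 and 36.5 FPKM in innervated muscle, 21.3 and 22.4 after denervation of WT, then 22.9 and 22.5 in the DKO-labelled group. It fell by 0.61 ± 0.13 on the log2 scale in denervated WT (edgeR adjusted p = 0.0204) and Il11ra2 by 0.73 ± 0.17 (adjusted p = 0.0243). These 2 are near-identical copies, so how fragments were split between them is uncertain. Cntfr, the CNTF receptor, was at -0.81 ± 0.30 and did not pass (adjusted p = 0.0834). With library totals alone neither Il11ra1 nor Il11ra2 was called, and this was not the only setting that lost them. In denervated WT each call was kept in 14 of 17 alternatives. In DKO-labelled against innervated WT that of Il11ra1 was kept in 11 of 17 and that of Il11ra2 in 12.

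Of 8 tested JAK and other STAT genes, 0 rose and 1 fell in denervated WT, with a list median of 0.01. Of all tested genes 14.4% rose and 14.3% fell. Jak2, the kinase used by growth hormone and gp130 receptors, was at 9.24 and 7.83 FPKM in innervated muscle and 4.88 and 3.06 in denervated WT, a log2 change of -1.09 ± 0.24 (edgeR adjusted p = 0.0204). It was also the 1 gene of the list called in DKO-labelled against innervated WT, at -1.1, and the denervated groups overlapped. Jak1 lay between 23.6 and 26.6 FPKM in all 6 libraries (0.16 ± 0.13, adjusted p = 0.406). Of 13 further JAK-STAT inhibitors and phosphatases, 1 rose and 2 fell in denervated WT, which is no more than a few genes beside the same shares of all tested genes. The phosphatase gene Ptpn2 rose by 0.75 ± 0.16 (adjusted p = 0.0177). In denervated WT the calls of Jak2 and Ptpn2 were kept in 15 of 17 alternatives each, and lost without innervated WT replicate 1 or 2. Socs7 and Pias1 were lower by 1.54-fold and 1.47-fold (adjusted p = 0.0413 and 0.0440), calls kept in 9 of 17 alternatives each.

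STAT3 target genes moved in both directions, at shares near those of all tested genes (14.4% higher and 14.3% lower). Of 20 tested, 4 rose and 3 fell in denervated WT, and the list median was 0.37, beside 0.002 over all tested genes. Lcn2, an acute-phase protein gene, was at 1.02 and 0.849 FPKM in innervated muscle, 9.16 and 78.1 after denervation of WT, then 44.2 and 36.8 in the DKO-labelled group (log2 5.62 ± 1.06 in denervated WT, edgeR adjusted p = 0.0133). The growth regulator Myc rose 9.45-fold (adjusted p = 0.00634), the metalloproteinase inhibitor Timp1 5.12-fold (adjusted p = 0.0283) and the NF-kB cofactor Bcl3 2.45-fold (adjusted p = 0.0159). Fos, an AP-1 subunit, fell 8.28-fold, the angiogenic factor Vegfa 3.72-fold and the kinase gene Pim3 2.35-fold (adjusted p = 0.00633, 0.00305 and 0.0103). In DKO-labelled against innervated WT 5 of the 20 were higher and 3 lower, beside 15.2% and 16.2% of all tested genes. They were led by Lcn2 (5.52), Myc (2.77), Fos (-2.66) and Vegfa (-2.55 on the log2 scale). Of these folds several moved with 1 library. Without denervated WT replicate 2, Lcn2 was at 3.36, Myc at 2.39 and Timp1 at 2.95 on the log2 scale. Without denervated WT replicate 1, Lcn2 was at 6.45, Timp1 at 1.27 and Fos at -3.8. These calls were kept there. In denervated WT the calls of Lcn2, Myc, Timp1, Fos and Bcl3 were lost without innervated WT replicate 1 or 2. That of Pim3 was lost without innervated WT replicate 2, and that of Vegfa was kept in every alternative. Lcn2 is also expressed by neutrophils, whose markers are given with their values beside those of other cells.

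The growth hormone and STAT5 axis, to which Socs2 and Cish belong, had 3 of 7 tested genes lower and 0 higher in denervated WT. Of all tested genes 14.3% were lower and 14.4% higher. Ghr, the growth hormone receptor, was at 37.6 and 35 FPKM in innervated muscle, 19.7 and 22.9 after denervation of WT, then 20.1 and 20.5 in the DKO-labelled group. It fell 2.01-fold in denervated WT (log2 -1.01 ± 0.14, edgeR adjusted p = 0.00590), and the denervated groups overlapped. Il15, a cytokine made by muscle, and its receptor chain Il15ra fell 4.74-fold and 2.53-fold (adjusted p = 0.0176 and 0.00611), and Il15 fell 7.57-fold without denervated WT replicate 1. All 3 were also lower in DKO-labelled against innervated WT. In denervated WT the calls of Ghr, Il15 and Il15ra were kept in 15 of 17 alternatives each, and lost without innervated WT replicate 1 or 2. Stat5a and Stat5b lay between 7.92 and 9.97 and between 25.1 and 36.4 FPKM over the 6 libraries, with log2 differences of 0.10 ± 0.17 and 0.07 ± 0.19 in denervated WT.

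**Figure D4:**
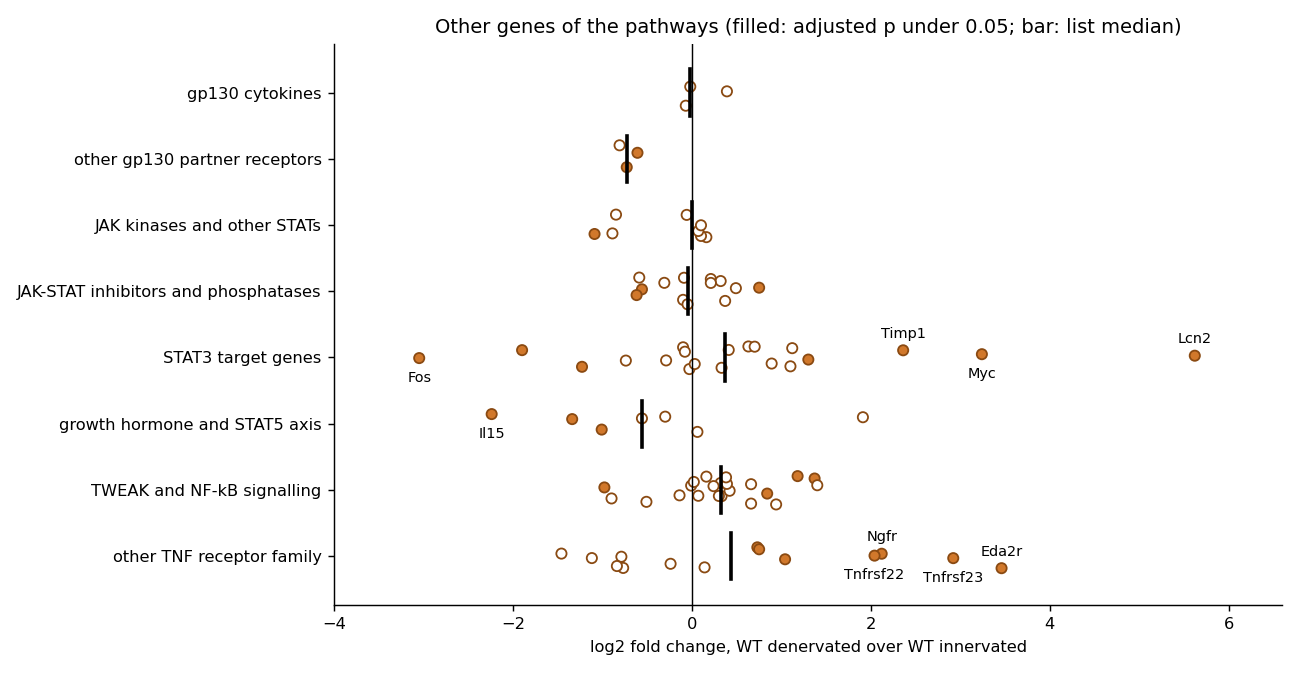
log2 fold change, denervated over innervated WT, of the tested genes of 8 further lists (horizontal axis), 1 point per gene, filled where the adjusted p was under 0.05, with a bar at the list median. TNF receptor family genes called in this comparison all lie to the right of 0 (7 of 14), while called STAT3 targets lie on both sides, from Fos at -3.05 to Lcn2 at 5.62.

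Among genes of TWEAK and NF-kB signalling, 3 of 22 tested rose and 1 fell in denervated WT, with a list median of 0.32. The share that rose is close to the 14.4% of all tested genes, and the share that fell is below their 14.3%. Nfkb2, which encodes p100, was at 7.18 and 7.40 FPKM in innervated muscle, 17.2 and 18.1 after denervation of WT, then 13.4 and 12.6 in the DKO-labelled group. It rose 2.59-fold (log2 1.37 ± 0.14, edgeR adjusted p = 0.00311), and the 3 groups did not overlap. Its partner Relb rose 1.79-fold (adjusted p = 0.0260) and the kinase Map3k14 (NIK), which acts upstream of p100 processing, 2.27-fold (adjusted p = 0.0494). The Map3k14 call was kept in 6 of 17 alternatives and that of Relb in 12. Nfkbia, the inhibitor IkB-alpha, fell by 0.98 ± 0.28 (adjusted p = 0.0407), a call kept in 10 of 17.

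Between the denervated groups 0 of these 22 genes passed. Birc3, Tnfaip3, Nfkb2 and Map3k14 had unadjusted p under 0.05, as did 748 of the 12247 tested genes. Each of the 4 lay lower in DKO-labelled muscle. The differences were -0.84 ± 0.21 for Birc3, -1.25 ± 0.35 for Tnfaip3, -0.39 ± 0.14 for Nfkb2 and -0.99 ± 0.35 for Map3k14 (edgeR adjusted p = 0.425, 0.532, 0.726 and 0.739). Birc3 and Tnfaip3 are NF-kB targets. Against innervated WT the DKO-labelled group had Nfkb2 and the kinase subunit Chuk higher (log2 0.99 and 0.91) and Nfkbia and Tnfaip3 lower (-1.30 and -1.75).

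Fn14 was not the only receptor of its family to rise. Of 19 other TNF receptor family genes, 14 were tested, and 7 rose and 0 fell in denervated WT, where 14.4% of all tested genes rose and 14.3% fell, at a list median of 0.44. Eda2r, the receptor of ectodysplasin A2, was at 5.14 and 5.07 FPKM in innervated muscle, 37.1 and 75.4 after denervation of WT, then 26.6 and 43.1 in the DKO-labelled group (log2 3.46 ± 0.40 in denervated WT, edgeR adjusted p = 0.00407). Its fold was 11, beside 5.72 for Fn14, and the difference between the 2 genes was not tested. The TRAIL decoy receptors Tnfrsf23 and Tnfrsf22 rose 7.58-fold and 4.11-fold (adjusted p = 0.00177 and 0.00767), and the neurotrophin receptor Ngfr 4.35-fold (adjusted p = 0.00304). Tnfrsf22 and Tnfrsf23 are close copies, so the split of fragments between them is uncertain. Not all of the 7 calls were equally stable. Those of Tnfrsf1a and Ltbr were kept in 8 of 17 alternatives each and lost in all 3 limma fits. The call of Tnfrsf23 was kept in all 17, those of Eda2r and Ngfr in 16 of 17 and that of Tnfrsf22 in 14 of 16. In DKO-labelled against innervated WT 7 of the 14 were also higher and 0 lower, and between the denervated groups 0 passed. Tnfrsf11b of this family did not reach the level filter. It had 82 and 73 fragments in innervated muscle, 25 and 8 after denervation of WT, then 12 and 6 in the DKO-labelled group. In the fit with no filter it was called lower than in innervated WT in both (-2.93 ± 0.51 and -3.51 ± 0.54, edgeR adjusted p = 0.00225 and 0.000955). There 1971 and 2258 of 18234 genes were called lower.

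Between the denervated groups 0 genes passed in any of the 8 lists. The smallest unadjusted p of the STAT3 targets were those of Vegfa and the cyclin gene Ccnd1, both at -0.65 (edgeR adjusted p = 0.538 and 0.589). Vegfa was at 26.3 and 34.5 FPKM after denervation of WT, then 19.0 and 20 in the DKO-labelled group, which do not overlap. In the growth hormone and STAT5 axis they were those of Igfbp3 (-2.04 ± 0.78, adjusted p = 0.770) and Igfbp5 (0.59 ± 0.71, adjusted p = 0.974), which encode IGF-binding proteins. Among the inhibitors Ptpn1, a JAK2 phosphatase, was at -0.46 ± 0.19 (adjusted p = 0.818) and Socs5 at 0.18 ± 0.17. Among the TNF receptors Eda2r was at -0.76 ± 0.36 (adjusted p = 0.870) and Ngfr at 0.40 ± 0.20 (adjusted p = 0.886). Stat5b (0.27) and Stat2 (0.21) led the JAK and STAT list, Il11ra1 (0.11) and Cntfr (-0.05) the receptor chains, and Clcf1 (-0.56) the cytokines, with adjusted p from 0.964 to 0.997.

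In whole muscle, fewer cells of a type and less RNA per cell cannot be told apart, and markers of several cell types moved along with these genes. The fibre markers were abundant in every library, with a summed level of 41100 and 50200 FPKM in innervated muscle, 18500 and 17100 after denervation of WT, then 14500 and 16000 in the DKO-labelled group. Acta1, the main skeletal actin, was listed at 0 in all 6 libraries, in tables where other fibre genes are abundant. Of the 11 tested fibre markers 7 fell in denervated WT, where 14.3% of all tested genes fell. Among them was Myh7 (4.99-fold, and 12.6-fold or 3.12-fold without denervated WT replicate 1 or 2).

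Endothelial markers, beside the falls of Lifr and Vegfa, fell at 7 of 8 in denervated WT. Their summed level was 123 and 148 FPKM in innervated muscle, 65.5 and 55.0 after denervation of WT, then 68.4 and 45.3 in the DKO-labelled group. Smooth muscle and pericyte markers fell at 5 of 6 and adipocyte markers at 6 of 6, with sums for the latter of 771 and 801, 269 and 298, and 339 and 246 FPKM in the same order. Most of each adipocyte sum was Fabp4. Fibroblast and fibro-adipogenic progenitor markers fell at 2 of 9. Of all tested genes 14.3% fell in denervated WT. No marker of these 4 lists was at 0 in any library. The part of these cells in the lower receptor levels was not tested.

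Of 4 tested neutrophil markers, read beside the rise of Lcn2, S100a8 was the 1 that rose in denervated WT (log2 3.48 ± 0.59, edgeR adjusted p = 0.00979). Its call was lost without innervated WT replicate 1 or 2, with a log2 difference of 4.29 without innervated WT replicate 2. Without denervated WT replicate 2 the difference was 2.76. The markers summed to 5.69 and 13.9 FPKM with the nerve intact, 31.0 and 73.8 after denervation of WT, then 94.2 and 122 in the DKO-labelled group, and S100a8 alone made up 25.2 and 57.9, then 86.1 and 119 FPKM of the denervated sums. The other 3 did not pass in denervated WT, where the list median was 1.04 on the log2 scale. S100a9 was at 4.42 and 13.4 FPKM after denervation of WT, then 5.96 and 2.39 in the DKO-labelled group. In the fit with no filter it differed from innervated WT by 1.23 ± 0.66 in denervated WT (edgeR adjusted p = 0.211). The same fit gave 0.12 ± 0.66 in DKO-labelled muscle. Csf3r differed by -0.59 ± 0.64 in denervated WT. Of 13 macrophage markers, Cd68 rose (1.58 ± 0.28, adjusted p = 0.0111) and 12 did not pass, and the sums of 332 and 223, 398 and 300, and 394 and 230 FPKM overlapped between groups. Satellite cell and myoblast markers summed to 75.0 and 78.5, 168 and 244, and 234 and 231 FPKM. Of these sums Myod1 alone made up 7.71 and 4.38, 55.2 and 127, and 113 and 120 FPKM. Of 7 tested, 2 were called higher in denervated WT, Myod1 and Cdh15, and 0 lower (Myod1 at 4.0, and 3.27 without denervated WT replicate 2). The others did not all follow: the satellite cell gene Pax7 was at -0.76 ± 0.31 (edgeR adjusted p = 0.111). Among repair Schwann cell markers Ngfr and Gdnf rose, 2 of 4 tested, with sums of 37.8 and 40.2, 41.0 and 66.7, and 56.4 and 72.5 FPKM. Most of each sum was Jun, a gene of many cell types that did not pass, at 36.0 and 38.6, 33.9 and 59.5, and 50.3 and 66.0 FPKM. Olig1 was at 0 fragments in both innervated libraries, 21 and 8 after denervation of WT, then 28 and 31 in the DKO-labelled group. In the fit with no filter Olig1 and Sox2 were called higher in denervated WT (6.56 ± 1.44 and 4.5 ± 0.57, edgeR adjusted p = 0.00923 and 0.00041). There 11.9% of 18234 genes were called higher. Shh and Artn, also below the level filter, were not called in that fit (adjusted p = 0.0539 and 0.114). Of 8 markers of myelinating Schwann cells 6 fell, and lymphocyte markers summed to at most 0.931 FPKM in every library, with 0 tested. Beside these marker counts, 14.4% of all tested genes rose and 14.3% fell in denervated WT. The part of these cells in the levels of Fn14, Stat3, Socs3 and Osmr was not tested.

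As a description of pattern, log2 CPM values were correlated across the 6 libraries, which share groups, runs and depth. The 5 named genes most like Tnfrsf12a were Sptlc1 (Pearson r = 0.9988), the proteasome subunit gene Psmb3 (0.9984), the ribosomal protein gene Rps13 (0.9978), Wdr45l (0.9978) and Wdr89 (0.9975). Their changes in denervated WT were smaller, from 0.43 to 0.87 on the log2 scale. Of the other 9 genes here, the joined TWEAK entry (-0.96), Lifr (-0.94) and Il6ra (-0.92) ran most opposite to Fn14. For Stat3 the most alike were Rpn2 (0.9957), Klhl5 (0.9937), Nek6 (0.9928), Ints3 (0.9922) and Uggt1 (0.9903). Nek6 illustrates that pattern, at 0.894 and 0.983 FPKM in innervated muscle, 2.33 and 1.53 after denervation of WT, then 4.90 and 2.55 in the DKO-labelled group. Within the 10 genes Osmr (0.91) and Socs3 (0.81) were the most like Stat3, and Socs2 (-0.85) the most opposite.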

How the data were processed

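The data are 6 deposited tables, 1 per library of whole mouse soleus RNA. The submitters' processing notes list Cuffdiff 2.0.2, TopHat2 2.0.3, Bowtie2 2.0.0.7, Trim Galore 0.2.1 and CASAVA 1.8.2, with genome build mm9. Their roles, the annotation and strandedness were not given in the sources at hand. Per the file headers, the authors gave FPKM, an externally scaled signal (raw fragments times 1 factor per library, from 0.6643 to 1.5641) and raw fragments. The deposited raw fragments are estimated counts, of which 88.4% to 89.0% were whole. Each table lists its 21805 entries on 3 identical lines, and entries of 1 symbol were summed.

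Counts were rounded and tested with edgeR 4.0.16 (R 4.3.3): TMM scaling, 1 fit of group means over all 6 libraries, genes of mean FPKM of at least 0.5, two-sided. The fit left 3 residual degrees of freedom and a common coefficient of biological variation of 0.222. Each SE is the absolute log2 difference over the square root of F. The scripts were tested on simulated data. FPKM follows the authors' factor, so FPKM is no share of a library. The 2 libraries of a group differed by more than counting noise (chi-square per degree of freedom 37.3, 198 and 76.8), and each was counted once. Groups come from the sample titles, and replicates are numbered in accession order. Alternatives were other scalings, DESeq2 1.42.0, limma 3.58.1 on log2(FPKM + 0.1, 0.5 or 1), other filters, a block for the runs and leaving out each library.

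The 10 genes and all lists were chosen with earlier results of these data known. Some list genes are not reported here and are left out of the list counts. Named beside the 10 are, per list and comparison, the called genes, at most 4 of widest change, or the 2 of smallest unadjusted p, up to 3 genes per cell type list, and the 5 genes most like Tnfrsf12a and Stat3 by Pearson r, passing over unnamed and joined entries. Jak1, Stat5a, Stat5b, Cntfr, Map3k14, Nfkb2, Il6, Osm, Lif, Il11, Cntf, Tnfrsf1a, Ltbr, Tnfrsf11b, S100a9, Csf3r, Sox2, Shh, Artn and Jun were named beyond that rule, after their values were seen, as were the other entries of the Tnfrsf12a locus and the ratios. Promoter sequences are RefSeq's on GRCm38.p6. Gene loci are the files' own on mm9.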

Additional observations from a re-analysis of the deposited data

How the results depend on the processing

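The number of the 10 genes called in denervated against innervated WT was 3. It was 5 with library totals alone, 5 with DESeq2 and 5 with the runs of sample numbers as a replicate block, 3 or 4 in the other alternatives that keep all libraries, and 0 to 4 when 1 library was left out, with 0 without innervated WT replicate 1 or 2. In DKO-labelled against innervated WT the count was 8, and 9 with the replicate block, 6 to 9 in the other alternatives that keep all libraries, and 0 to 9 with 1 library left out: 0 without either innervated library and 1 without either DKO-labelled one. Between the denervated groups it was 0 in all 17 alternatives. Over all genes the calls fell from 3512 to 468 and 202, and from 3843 to 887 and 661, without innervated WT replicate 1 or 2, where the lone library is assumed to vary like the other groups. They fell to 2067 and 1204 without DKO-labelled replicate 1 or 2, and rose to 5357 without denervated WT replicate 1. Between the denervated groups the 5 calls became 182 with DESeq2, 60 with no filter, 25 to 35 with limma, 119 and 14 without denervated WT replicate 1 or 2 and 0 to 10 elsewhere. With library totals alone the median of all genes moved to 0.268 and 0.333 and the calls split into 3332 higher and 1144 lower, and 3732 and 1239, in place of 1759 and 1753, and 1859 and 1984.

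The sign of Cish in denervated against innervated WT turned with 1 library left out (range -1.79 to 0.44): it was 0.44 without the second innervated library and 0.11 without the second denervated WT library. Between the denervated groups the signs of uncalled genes turned. With 1 library left out their ranges were -0.97 to 0.55 for Tnfrsf12a, -0.20 to 0.14 for Tnfsf12, -0.30 to 0.17 for Il6ra, -0.12 to 0.08 for Il6st, 0.00 to 0.36 for Osmr, -0.71 to 0.14 for Lifr and -0.47 to 0.49 for Socs3. With library totals alone Tnfsf12 (0.01) and Il6st (0.03) turned, and with upper-quartile scaling Il6st (0.02). The cause was not tested. Il6ra had no value at a mean FPKM of at least 2. Intervals rest on 2 libraries per group. Among the genes described, Il6, Osm, Lif, Il11, Tnfrsf11b, Olig1, Sox2, Shh and Artn had too few fragments to pass the level filter.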
